A study of Mus musculus with 6 samples.

Results

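The Wnt pathway was examined in chondrocytes of the mouse, the matrix-making cells of cartilage, through 51 named genes for ligands, receptors, antagonists, relay proteins and targets. Members were taken by gene name from a table of 26969 genes. Of the 51, 50 had a row there and 48 had enough reads to be tested, among 17645 genes tested in all. Dkk1 was not analysed here, and Rnf43 and Sfrp5 were measured but fell under the filter on low counts.

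Transcripts were profiled in 6 libraries, 3 labelled mAC_Mito and 3 labelled mAC in the description field, all from wild-type chondrocytes and without a stated age, strain or sex. The study set chondrocytes beside chondrocytes given mitochondria, which its title traces to osteocytes. The labels contradict each other: the mAC_Mito libraries carry the treatment entry vehicle and the mAC libraries the entry mitochondria. The groups therefore keep their description names, every difference is mAC_Mito minus mAC, and none is read as what mitochondria do. Separate cultures or animals are not stated for the replicates. The p-values therefore reflect the spread among these libraries alone, which may be technical. Total counts were 59116068 to 68378213 per library, of which the members took 0.275% to 0.317%. Cartilage markers were abundant, with a summed FPKM (reads scaled to gene length and library depth, so that levels can be compared between genes) over 8 genes of 1523 to 2474 in mAC_Mito and 1672 to 1959 in mAC. Of 6 measured osteoblast and osteocyte genes, Sost had 0, 0 and 4 counts in mAC_Mito 1, 2 and 3. In mAC 1, 2 and 3 Sost had 0, 0 and 8 counts. Dmp1 had 0, 20 and 0 counts in mAC_Mito 1, 2 and 3 and 6, 11 and 12 counts in mAC 1, 2 and 3. Phex had 19 to 40 counts and Bglap 13 to 25 counts per library. The others were higher. Ibsp was at 7.35 to 9.23 FPKM in mAC_Mito and 6.55 to 8.35 FPKM in mAC. Sp7 was at 3.26 to 4.34 FPKM in mAC_Mito and 3.01 to 4.05 FPKM in mAC. In these bulk samples, fewer cells of a type and less RNA per cell cannot be told apart.

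Wnt proteins are secreted lipid-modified ligands. At the cell surface they bind Frizzled receptors together with the co-receptors Lrp5 and Lrp6, which stops the complex of Axin, Apc and Gsk3b from marking beta-catenin for destruction, so that beta-catenin enters the nucleus and works with TCF/LEF factors. Other Wnts, Wnt5a among them, act mainly without beta-catenin through Ror2 and Frizzled receptors on cell shape and polarity. In cartilage, beta-catenin signalling is known to promote hypertrophy and, when excessive, matrix loss, and secreted antagonists such as Frzb hold it back.

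No Wnt member differed between mAC_Mito and mAC past the threshold (Benjamini-Hochberg adjusted p under 0.05 in edgeR's quasi-likelihood test over all genes tested), where 0.0113% of all genes tested did. The lowest adjusted p of a member was 0.99992. Fzd5, a Frizzled receptor, and Gsk3b, the kinase that marks beta-catenin, were the 2 of 48 with an unadjusted p under 0.05, both with the higher mean in mAC_Mito. That is 4.17% of the members, while 3.19% of all genes tested reached that level and 2.1% did so with the higher mean in mAC_Mito. DESeq2 gave no member past the adjusted threshold and 3 at an unadjusted p under 0.05, the third being Lrp5, where 3.44% of all genes reached it. In limma on log2(FPKM + 1) and on log2(FPKM + 0.1), 1 member did, Gsk3b, against 3.1% and 3.08% of all genes, and Fzd5 had an unadjusted p of 0.0871 and 0.0952. The difference on the log2 scale was above 0 in 36 members and below 0 in 12. Above 0 lay 75.0% of the members and 50.4% of all genes tested, and the median was 0.11 over the members and 0.0016 over all genes tested. The median member had a 95% interval reaching 0.34 to either side on the log2 scale. For a typical member, a smaller difference thus had an interval that included 0. A larger one could still miss the adjusted threshold, as Fzd5 did at 0.37 (edgeR adjusted p = 0.99992).

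**Figure D1:**
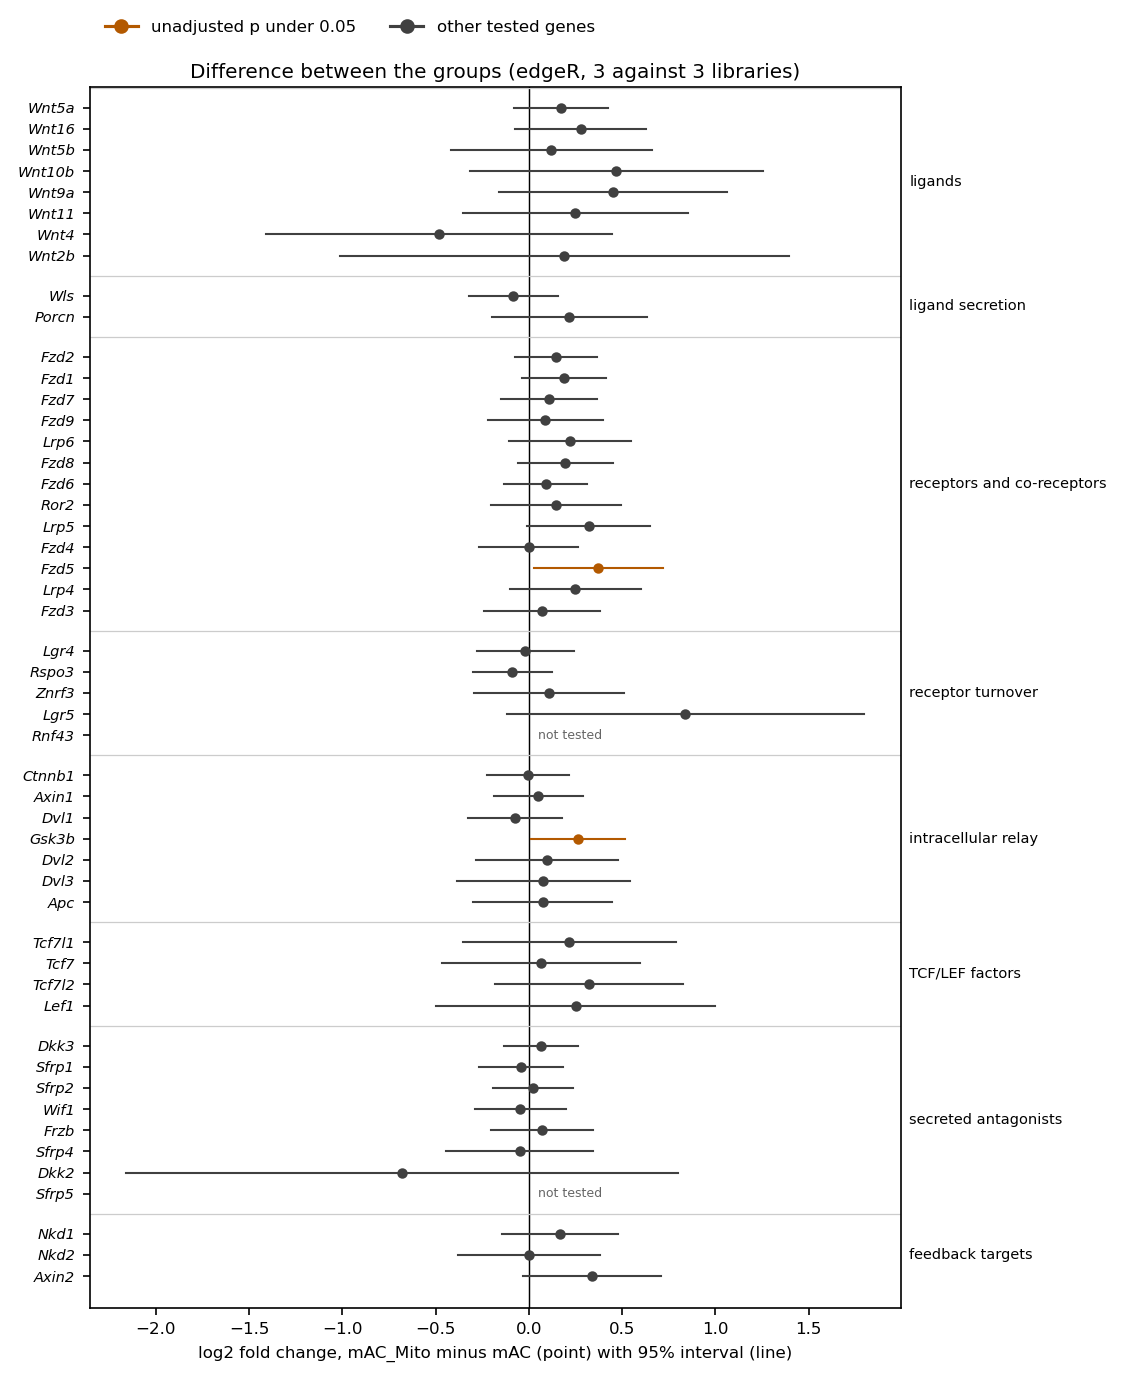
Log2 fold change, mAC_Mito minus mAC, for the 48 tested Wnt members (points) with 95% intervals (lines) from edgeR on 3 against 3 libraries, grouped by role. The intervals of Fzd5 and Gsk3b (orange) lie above 0, all others include 0, and the widest is that of Dkk2, from -2.16 to 0.80.

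Levels spanned a wide range. Beta-catenin (Ctnnb1) was the most abundant member, at 156, 184 and 169 FPKM in mAC_Mito 1, 2 and 3 and 148, 165 and 191 FPKM in mAC 1, 2 and 3, so the groups overlapped. In all, 11 members had a mean over the 6 libraries of at least 10 FPKM, 25 lay between 1 and 10 FPKM and 14 under 1 FPKM. The antagonist Dkk3, the ligand transporter Wls, Sfrp1, Fzd2, Fzd1, Lgr4 and Sfrp2 followed Ctnnb1 in that order, with group means between 13.6 and 55.3 FPKM. At the low end, Rnf43, a ligase that removes Frizzled from the surface, had 9, 11 and 0 counts in mAC_Mito and 0, 4 and 7 counts in mAC. Sfrp5 had 0, 14 and 9 counts in mAC_Mito and 0, 11 and 7 counts in mAC. Neither exceeded 14 counts in a library, and each was at 0 in 2 libraries.

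**Figure D2:**
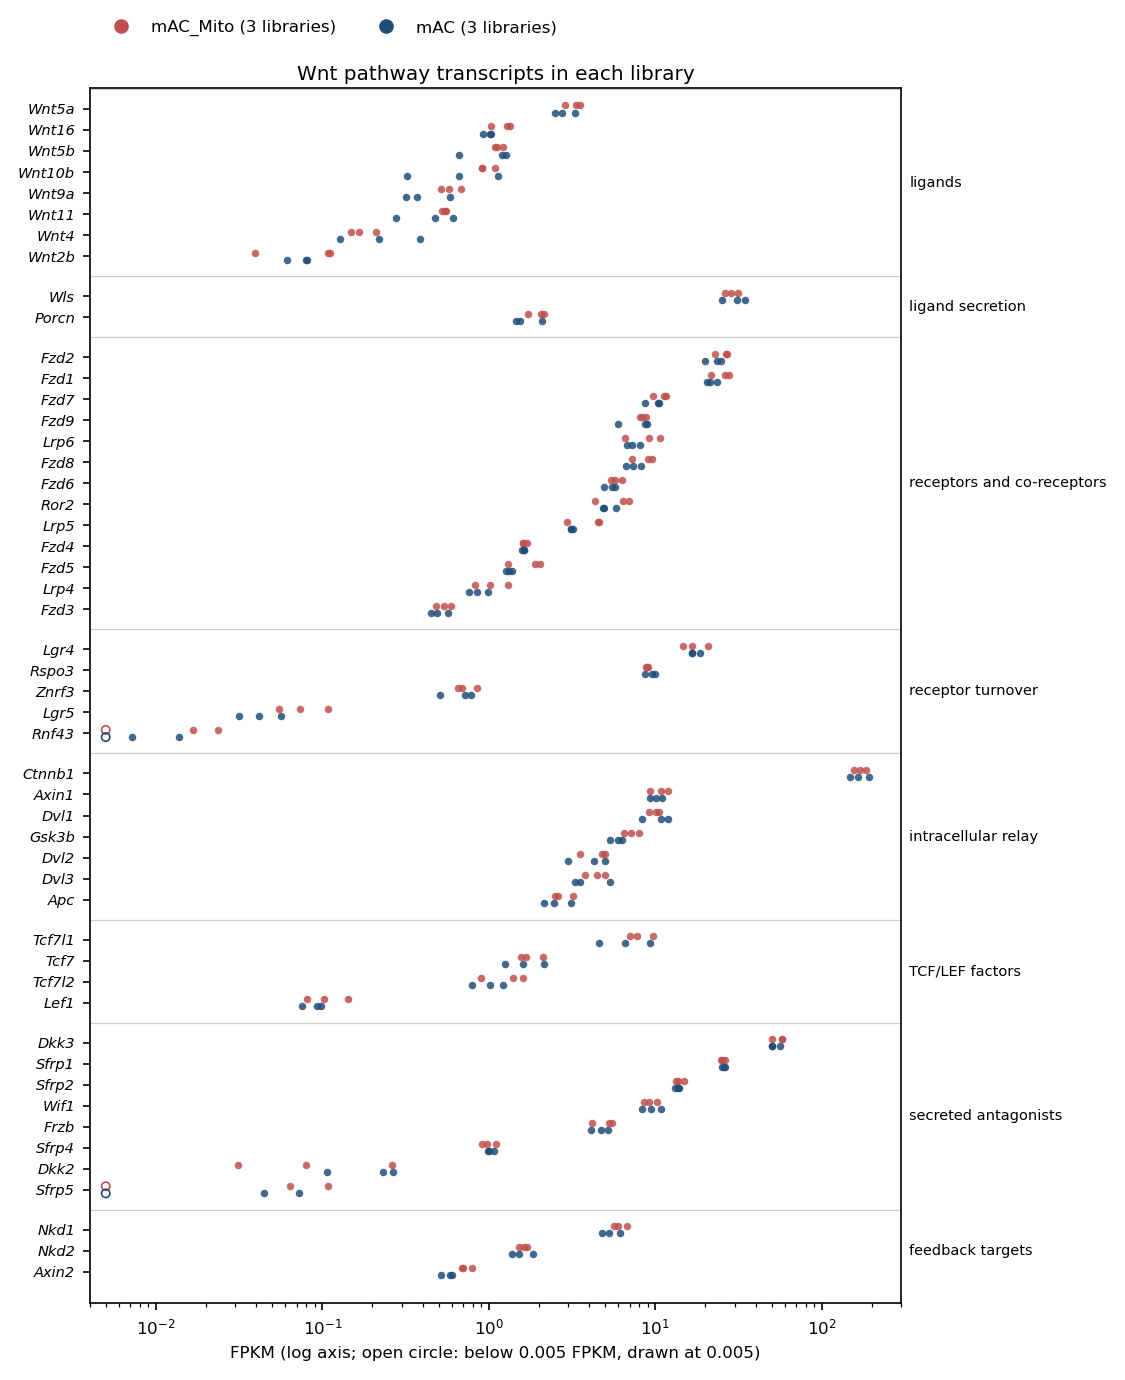
FPKM of the 50 measured Wnt members in each library (log axis), mAC_Mito above mAC in each row, grouped by role and ordered by level. Ctnnb1 reaches 191 FPKM and every ligand stays under 4 FPKM; in most rows the points of the groups overlap.

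The ligands were expressed at low levels, and Wnt5a, the beta-catenin-independent ligand, led the 8 members. Wnt5a was at 2.87, 3.32 and 3.52 FPKM in mAC_Mito and 2.50, 2.74 and 3.27 FPKM in mAC, a log2 fold change of 0.17 (standard error 0.11; 95% interval -0.08 to 0.42). Only mAC_Mito 2 and 3 lay above all mAC libraries. Wnt16, a ligand known for its role in bone and joint tissue, was at 1.03, 1.29 and 1.34 FPKM in mAC_Mito and 0.925, 1.02 and 1.02 FPKM in mAC (log2 fold change 0.28, standard error (SE) 0.16, unadjusted p = 0.107 and adjusted p = 0.99992 in edgeR). Its groups did not overlap, by a narrow margin at mAC_Mito 1; 3.93% of all genes tested lay wholly higher in mAC_Mito in this way on CPM (counts scaled to library depth), and 2 of the 48 members did. Wnt5b, a close relative of Wnt5a that is expressed in growth cartilage, was at 1.21, 1.12 and 1.09 FPKM in mAC_Mito and 0.664, 1.27 and 1.19 FPKM in mAC. The value of mAC 1 stood below the others, and without that library the log2 fold change of Wnt5b was -0.083 in place of 0.12. The gene overlaps Fbxl14 on the opposite strand, which had 7841 counts over the libraries against 1268 for Wnt5b, and use of strand in counting is not given in the sources used here.

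Wnt10b, a beta-catenin-activating ligand that favours bone over fat, was at 0.910, 1.09 and 0.914 FPKM in mAC_Mito and 0.325, 0.659 and 1.14 FPKM in mAC. The mAC libraries spread across the mAC_Mito values on both sides, and the log2 fold change of 0.47 (standard error 0.35) was 0.95 without mAC 3 and 0.15 without mAC 1. Wnt9a, a joint-forming ligand, averaged 0.590 ± 0.0796 FPKM in mAC_Mito and 0.425 ± 0.142 FPKM in mAC (SD, n = 3 each), and Wnt11 averaged 0.540 ± 0.0170 and 0.455 ± 0.169 FPKM in the same order. Wnt4 averaged 0.174 ± 0.0320 FPKM in mAC_Mito and 0.244 ± 0.130 FPKM in mAC, its highest value being 0.385 FPKM in mAC 2, and without that library its log2 fold change was 0.0015 in place of -0.48. Wnt2b had 12 to 36 counts in mAC_Mito and 22 to 25 counts in mAC.

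The log2 fold change was above 0 in 7 of the 8 ligands, with a median of 0.22. Summed over them, FPKM was 7.33, 8.31 and 8.24 in mAC_Mito 1, 2 and 3 and 5.27, 6.93 and 8.13 in mAC 1, 2 and 3. The groups overlapped, and mAC 1 was the lowest library, as it was for 5 of the 8 ligands on CPM. The log2 ratio of the group means was 0.23, and without mAC 1 it was 0.081. Wnt5a gave 39.1% to 47.4% of the sum in every library, and Wnt10b 6.16% of it in mAC 1 and 9.52% to 14% in the others. Among markers of other cell types, the adipocyte, macrophage and skeletal muscle sums were also lowest in mAC 1. Summed FPKM was 63.7 to 80.8 in mAC_Mito and 45.8 to 78.2 in mAC for 5 adipocyte genes, 69.9 to 114 and 62.3 to 79.3 for 7 macrophage and leukocyte genes, and 38.0 to 43.3 and 29.0 to 42.8 for 7 skeletal muscle genes, in the same order of groups. None was at 0 in a library or passed the adjusted threshold in edgeR. Each of the 5, 7 and 7 had a log2 fold change above 0. The sum of the measured osteoblast and osteocyte genes was lowest in mAC 1 as well, at 12.08 to 12.99 in mAC_Mito and 11.01 to 12.17 in mAC. Not every marker sum took this course. The hypertrophic sum was 66.59 to 70.23 in mAC_Mito and 70.16 to 75.50 in mAC, lowest in mAC_Mito 3. Most of it came from Mmp13, at 44.3 to 50.8 FPKM in mAC_Mito and 50.7 to 55.0 FPKM in mAC. The log2 fold change was -0.17 for Mmp13, but 0.10 for Col10a1 and 0.06 for Alpl. The sum of 4 superficial zone and synovial genes was 69.4 to 81.1 in mAC_Mito and 68.9 to 113 in mAC, highest in mAC 1. The endothelial sum was 0.202 to 0.341 in mAC_Mito and 0.215 to 0.303 in mAC. Cd68 of the macrophage list was highest in mAC 1 (9.59 FPKM). The part of these markers in the ligand values was not tested. Among Wnt genes outside the 51, Wnt10a was more abundant than any of these ligands, at 5.29, 4.84 and 5.86 FPKM in mAC_Mito and 4.16, 4.82 and 3.60 FPKM in mAC (log2 fold change 0.32, edgeR unadjusted p = 0.0604).

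The secretion machinery was present. Wls, which carries Wnt proteins to the cell surface, was at 26.3, 31.5 and 28.6 FPKM in mAC_Mito and 25.1, 30.9 and 34.5 FPKM in mAC. Porcn, the acyltransferase that lipidates them, was at 2.15, 2.07 and 1.73 FPKM in mAC_Mito and 1.45, 2.08 and 1.53 FPKM in mAC. The groups overlapped for both, with log2 fold changes of -0.08 (95% interval -0.32 to 0.15) for Wls and 0.22 (-0.20 to 0.63) for Porcn.

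**Figure D3:**
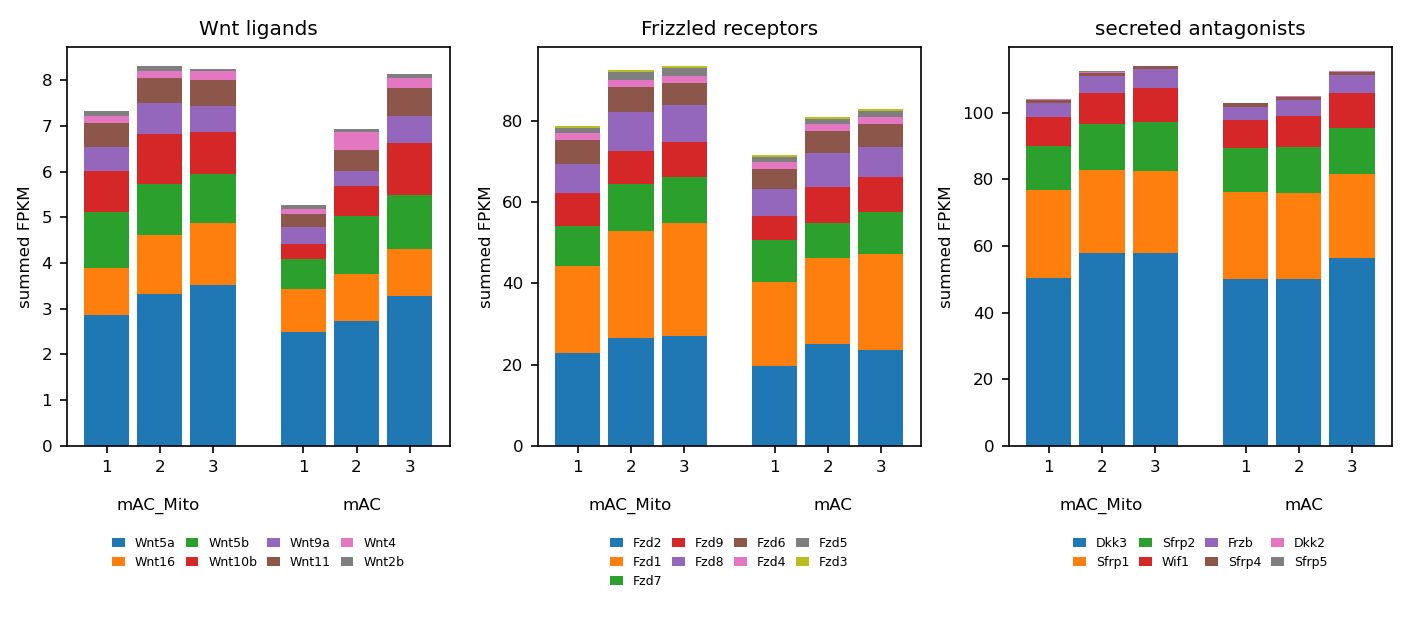
Summed FPKM per library of the 8 ligands, the 9 Frizzled receptors and the 8 measured secreted antagonists, split by gene (bars from 0, mAC_Mito left of mAC). Ligand sums stay between 5.27 and 8.31 FPKM, Frizzled sums between 71.7 and 93.6 FPKM and antagonist sums between 103 and 114 FPKM.

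In summed FPKM, the Frizzled receptors were an order of magnitude above the 8 ligands and were led by Fzd2 and Fzd1. Not every receptor was: Fzd3, Fzd5 and Fzd4 had means of 0.520, 1.53 and 1.63 FPKM over the libraries, below Wnt5a at 3.04 FPKM. Fzd2 was at 22.9, 26.7 and 27.1 FPKM in mAC_Mito and 19.7, 25.0 and 23.6 FPKM in mAC. Fzd1 was at 21.5, 26.3 and 27.8 FPKM in mAC_Mito and 20.5, 21.3 and 23.6 FPKM in mAC. For both receptors mAC_Mito 2 and 3 were the highest libraries while mAC_Mito 1 lay among the mAC values. The log2 fold changes were 0.15 (95% interval -0.07 to 0.37) for Fzd2 and 0.19 (-0.04 to 0.41) for Fzd1. Together these 2 genes gave most of the Frizzled sum, Fzd1 26.3% to 29.7% and Fzd2 27.5% to 30.8% of it in every library. That sum was 78.8, 92.6 and 93.6 FPKM in mAC_Mito and 71.7, 80.9 and 82.9 FPKM in mAC, with a log2 ratio of means of 0.17 that was 0.25 without mAC_Mito 1 and 0.11 without mAC 1.

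Fzd5 had the smallest p of the members. It was at 1.31, 1.90 and 2.02 FPKM in mAC_Mito and 1.32, 1.26 and 1.38 FPKM in mAC. mAC_Mito 2 and 3 stood above every mAC library and mAC_Mito 1 did not, so the groups overlapped. The difference on the log2 scale was 0.37 (SE 0.15; 95% interval 0.03 to 0.72, edgeR unadjusted p = 0.0379, adjusted p = 0.99992), and it ranged from 0.26 to 0.51 with each library left out in turn. Fzd7, Fzd8, Fzd9 and Fzd6 were at intermediate levels. Fzd7 averaged 10.8 ± 1.04 FPKM in mAC_Mito and 9.88 ± 1.0 FPKM in mAC, Fzd8 8.62 ± 1.25 and 7.41 ± 0.785 FPKM, Fzd9 8.40 ± 0.369 and 7.85 ± 1.65 FPKM, and Fzd6 5.82 ± 0.430 and 5.40 ± 0.411 FPKM, each in that order of groups (SD, n = 3 each). Fzd4, the norrin receptor, hardly varied, at 1.61 to 1.69 FPKM in mAC_Mito and 1.59 to 1.63 FPKM in mAC, with a 95% interval of the log2 fold change from -0.27 to 0.27. Fzd3, a planar polarity receptor, averaged 0.536 ± 0.0534 and 0.503 ± 0.0627 FPKM.

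The co-receptors Lrp5 and Lrp6 were likewise highest in mAC_Mito 2 and 3. Lrp5 was at 2.95, 4.58 and 4.54 FPKM in mAC_Mito and 3.13, 3.22 and 3.13 FPKM in mAC (log2 fold change 0.32, standard error 0.15, edgeR unadjusted p = 0.0548). Lrp6 was at 6.54, 10.6 and 9.14 FPKM in mAC_Mito and 7.24, 6.76 and 8.11 FPKM in mAC (log2 fold change 0.22, standard error 0.15). For both, mAC_Mito 1 was the lowest of the 6 libraries on FPKM and mAC_Mito 2 and 3 were the highest. Lrp4, which binds Wnt inhibitors such as sclerostin, was at 0.830, 1.3 and 1.02 FPKM in mAC_Mito and 0.762, 0.852 and 0.996 FPKM in mAC. Ror2, the receptor tyrosine kinase for Wnt5a, was at 4.35, 6.94 and 6.36 FPKM in mAC_Mito and 4.95, 5.83 and 4.88 FPKM in mAC, again lowest in mAC_Mito 1.

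Of the 13 receptors and co-receptors, 12 had a log2 fold change above 0, with a median of 0.15. On CPM, 6 of the 13 were highest in mAC_Mito 2 and 4 in mAC_Mito 3. Of all 48 tested members, 13 were highest in mAC_Mito 2 and 11 in mAC_Mito 3. The share over all genes tested was not counted, so these counts cannot be read as particular to receptors. Leaving out mAC_Mito 1 gave 8 members with an unadjusted p under 0.05, or 16.7% of the 48 against 6.74% of all genes tested in that fit, and 6 of them were receptors or co-receptors, beside Tcf7l2 and Gsk3b. Those 6 were Lrp5 (log2 fold change 0.47, edgeR unadjusted p = 0.00194), Fzd5 (0.51, 0.00451), Lrp6 (0.36, 0.0132), Fzd1 (0.25, 0.0301), Fzd8 (0.28, 0.0362) and Lrp4 (0.36, 0.0449). No member passed the adjusted threshold there, where the lowest adjusted p of a member was 0.428. Without both libraries numbered 1, a comparison added after the data were seen, 10 members had an unadjusted p under 0.05, or 20.8% against 8.72% of all genes, all higher in mAC_Mito: Lrp5, Tcf7l2, Fzd5, Gsk3b, Dvl3, Lrp6, Fzd1, Apc, Tcf7l1 and Fzd8. The lowest adjusted p of a member in edgeR was then 0.13 (Lrp5).

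The receptor values also moved the other way. Without mAC_Mito 2 the log2 fold change was 0.086 for Lrp6 (edgeR unadjusted p = 0.568), 0.093 for Lrp4 (0.556) and 0.032 for Ror2 (0.85). With each library left out in turn, Lrp5 ranged from 0.23 to 0.47, Lrp6 from 0.086 to 0.36, Lrp4 from 0.093 to 0.36, Ror2 from 0.032 to 0.29, Fzd1 from 0.12 to 0.25 and Fzd8 from 0.14 to 0.28. Without mAC 1, 6 of 49 members, or 12.2% against 4.9% of all genes, had an unadjusted p under 0.05: Gsk3b, Dvl3, Tcf7l1, Apc, Fzd5 and Tcf7l2, all higher in mAC_Mito. Without mAC 3 there were 2 (Wnt10b and Wnt9a, background 4.26%), without mAC_Mito 2 there was Dkk2 (background 2.31%), without mAC_Mito 3 there was Lgr5 (background 1.52%), and without mAC 2 there was none (background 2.22%).

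Several matrix genes were highest in the same libraries as the receptors. The summed FPKM of 4 fibroblastic matrix markers was 613, 1123 and 1038 in mAC_Mito 1, 2 and 3 and 738, 619 and 787 in mAC 1, 2 and 3, with none of the 4 at 0. That of the 8 cartilage markers was 1523, 2474 and 2278 in mAC_Mito and 1672, 1675 and 1959 in mAC. Of these genes Col1a1, Col1a2, Col3a1, Col2a1, Acan, Col11a2 and Matn3 were highest in mAC_Mito 2 and 3, while Postn, Hapln1, Col9a1, Comp and Sox9 were not. Postn was at 103, 89.0 and 87.0 FPKM in mAC_Mito and 98.1, 98.5 and 91.5 FPKM in mAC, lowest in mAC_Mito 2 and 3, and Col9a1 was highest in mAC 3 (258 FPKM). The messenger RNAs of the mitochondrial genome took 5.60%, 2.91% and 3.40% of counts in mAC_Mito and 7.31%, 4.71% and 3.13% in mAC, so the libraries numbered 1 had the highest share of their groups. Gene length moved with the difference as well. Among genes of at least 1 CPM with models over 7500 bases, 60.7% of 3594 had a log2 fold change above 0 and the median was 0.038, while the 13 members of that length had a median of 0.22 with 11 above 0. Among genes of 2500 to 5000 bases, 44.5% of 4276 lay above 0 with a median of -0.016, and 14 of 18 members did with a median of 0.10. The part of matrix content, mitochondrial share or gene length in the receptor values was not tested.

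**Figure D4:**
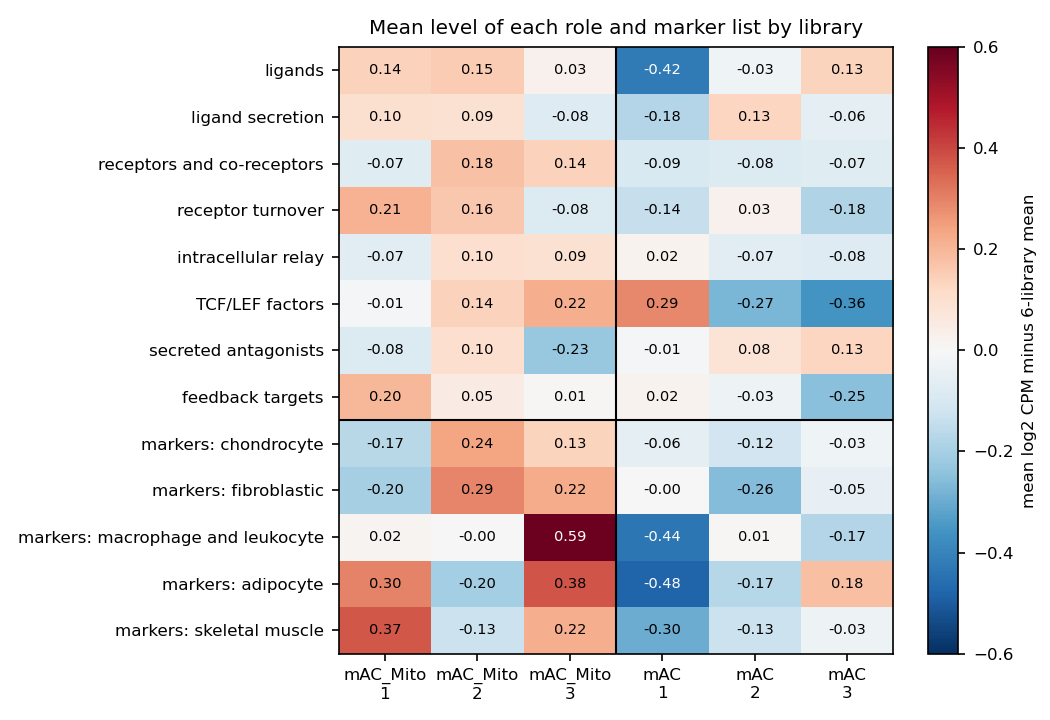
Mean level of each Wnt role and of 5 marker lists in each library, as log2 CPM centred on the 6-library mean (colour and printed value), mAC_Mito left of mAC. Receptors are at 0.18 and 0.14 in mAC_Mito 2 and 3 and below 0 in the other 4 libraries; ligands are lowest in mAC 1 and TCF/LEF factors are lowest in mAC 3.

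Receptor levels at the surface are set by R-spondins, Lgr receptors and the ligases Znrf3 and Rnf43. Lgr4, the main R-spondin receptor here, was at 14.6, 20.8 and 16.7 FPKM in mAC_Mito and 16.7, 16.6 and 18.6 FPKM in mAC, with mAC_Mito libraries at both ends of the range. Rspo3, the R-spondin among the 51 genes, was one of the steadiest members. It was at 8.84, 8.89 and 9.0 FPKM in mAC_Mito and 8.63, 9.52 and 9.94 FPKM in mAC. Outside the 51, Rspo2 was at 1.04 to 1.74 FPKM and Rspo1 at 0.184 to 0.512 FPKM. For Rspo3, the measure of level mattered. On CPM its groups did not overlap, lower in mAC_Mito, while on FPKM mAC 1 lay below all others; 4.38% of all genes tested lay wholly lower in mAC_Mito on CPM, and Rspo3 was the 1 member that did. Its log2 fold change was -0.09 (SE 0.09; 95% interval -0.30 to 0.12). Lgr5, the stem cell form of the receptor, had 87, 52 and 40 counts in mAC_Mito and 32, 46 and 24 counts in mAC, a log2 fold change of 0.84 (SE 0.43; edgeR unadjusted p = 0.0794). Its counts were under 100 in every library, the groups overlapped, and the log2 fold change was 0.485 without mAC_Mito 1 and 1.05 without mAC_Mito 3. Znrf3 averaged 0.729 ± 0.105 FPKM in mAC_Mito and 0.670 ± 0.141 FPKM in mAC (SD, n = 3 each).

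Inside the cell, Gsk3b was the other member with an unadjusted p under 0.05. It was at 6.44, 7.96 and 7.17 FPKM in mAC_Mito and 6.31, 5.36 and 5.98 FPKM in mAC. The groups were apart on FPKM and overlapped on CPM, where mAC_Mito 1 and mAC 1 changed places. The difference on the log2 scale was 0.26 (SE 0.11; 95% interval 0.01 to 0.51, edgeR unadjusted p = 0.0438, adjusted p = 0.99992). The beta-catenin gene itself had a 95% interval of the log2 fold change from -0.22 to 0.21. Axin1, the scaffold of the destruction complex, was at 9.32, 10.7 and 11.9 FPKM in mAC_Mito and 9.36, 11.0 and 10.0 FPKM in mAC. Apc, its partner, averaged 2.78 ± 0.391 and 2.58 ± 0.500 FPKM, in the same order of groups. The Dishevelled genes, which pass the signal from Frizzled to that complex, averaged 9.94 ± 0.661 and 10.3 ± 1.88 FPKM for Dvl1, 4.42 ± 0.770 and 4.08 ± 1.03 FPKM for Dvl2, and 4.40 ± 0.617 and 4.05 ± 1.12 FPKM for Dvl3. Dvl3 was highest in mAC 1 (5.34 FPKM), and Dvl1 and Dvl2 were lowest there (8.30 and 2.98 FPKM). Dvl2 overlaps Acadvl on the opposite strand, which had 35848 counts over the libraries against 11646 for Dvl2, so its counts are uncertain in the way of those of Wnt5b.

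Of the TCF/LEF factors, which carry the signal to the genes, Tcf7l1 and Tcf7 spread more within mAC than within mAC_Mito, and Tcf7l2 and Lef1 less. Tcf7l1, which acts mainly as a repressor, was at 7.82, 7.01 and 9.69 FPKM in mAC_Mito and 9.33, 6.61 and 4.58 FPKM in mAC. Tcf7 was at 1.56, 1.67 and 2.11 FPKM in mAC_Mito and 2.13, 1.59 and 1.25 FPKM in mAC. In both, mAC 1 was at the level of the highest mAC_Mito library and mAC 3 was the lowest of all. Tcf7l2 was at 0.898, 1.40 and 1.61 FPKM in mAC_Mito and 1.22, 0.794 and 1.02 FPKM in mAC, and Lef1, with 50 to 86 counts in mAC_Mito and 53 to 63 in mAC, was the lowest of the 4. The log2 fold changes of the 4 genes were 0.22, 0.07, 0.32 and 0.25 with standard errors of 0.25, 0.24, 0.22 and 0.33 for Tcf7l1, Tcf7, Tcf7l2 and Lef1. Without mAC 1, that of Tcf7l1 was 0.57 (edgeR unadjusted p = 0.0204, adjusted p = 0.99), and without mAC 3 it was -0.028. Across the 6 libraries Tcf7l1 had a coefficient of variation of 27.5% in CPM, against medians of 13.6% over the tested members and 14.5% over all genes tested. Among genes with a mean of at least 1 CPM, as Tcf7l1 has, the medians were 13.05% over the members and 11.81% over all genes.

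In summed FPKM, the secreted antagonists were far more abundant than the 8 ligands, and most of these antagonists varied little. The ligand sum leaves out Wnt10a, at 3.60 to 5.86 FPKM, and Dkk3 gave 47.6% to 51.4% of the antagonist sum. Dkk3, a divergent Dickkopf protein, was at 50.4, 57.7 and 57.8 FPKM in mAC_Mito and 50.0, 50.0 and 56.3 FPKM in mAC. Sfrp1, a decoy that binds Wnt ligands, was at 26.4, 25.1 and 24.7 FPKM in mAC_Mito and 26.2, 25.9 and 25.2 FPKM in mAC. The ranges overlapped for both, with log2 fold changes of 0.06 (95% interval -0.14 to 0.27) for Dkk3 and -0.04 (-0.27 to 0.18) for Sfrp1. Sfrp2, a second decoy, averaged 14 ± 0.848 FPKM in mAC_Mito and 13.6 ± 0.376 FPKM in mAC, Wif1, which sequesters Wnts, 9.32 ± 0.816 and 9.50 ± 1.22 FPKM, and Frzb, the articular cartilage decoy, 4.96 ± 0.715 and 4.66 ± 0.556 FPKM (SD, n = 3 each). Sfrp4 averaged 1.0 ± 0.0973 and 1.02 ± 0.0486 FPKM. The antagonist sum was 104, 112 and 114 FPKM in mAC_Mito and 103, 105 and 113 FPKM in mAC, a log2 ratio of means of 0.043, and 3 of the 7 tested antagonists had a log2 fold change above 0. Dkk2, which blocks Lrp5 and Lrp6, was at the other extreme of variation, with 23, 67 and 9 counts in mAC_Mito and 28, 68 and 70 counts in mAC. Its log2 fold change of -0.68 (standard error 0.66) was -1.74 without mAC_Mito 2 (edgeR unadjusted p = 0.0208, adjusted p = 0.9998) and -0.23 without mAC_Mito 3 (edgeR unadjusted p = 0.696).

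Axin2, Nkd1 and Nkd2 are induced by beta-catenin signalling and limit it in turn, and Axin2 is the usual readout of the pathway. Axin2 was at 0.693, 0.789 and 0.699 FPKM in mAC_Mito and 0.515, 0.598 and 0.588 FPKM in mAC. All 3 mAC_Mito libraries lay above all 3 mAC libraries, on counts of 269 to 296 in mAC_Mito and 201 to 262 in mAC. The difference on the log2 scale was 0.34 (SE 0.16; 95% interval -0.03 to 0.71, edgeR unadjusted p = 0.0691, adjusted p = 0.99992), and it stayed between 0.30 and 0.37 with each library left out in turn. Axin2 and Wnt16 were the 2 members that lay wholly higher in mAC_Mito, or 4.17% of those tested, against 3.93% of all genes. Nkd1, the more abundant Naked gene, was at 6.78, 5.68 and 6.0 FPKM in mAC_Mito and 5.29, 6.14 and 4.82 FPKM in mAC. Nkd2 was at 1.69, 1.63 and 1.51 FPKM in mAC_Mito and 1.83, 1.52 and 1.38 FPKM in mAC, and mAC libraries held both ends of its range. The log2 fold changes were 0.17 (95% interval -0.15 to 0.48) for Nkd1 and between -0.38 and 0.38 at 95% for Nkd2.

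**Figure D5:**
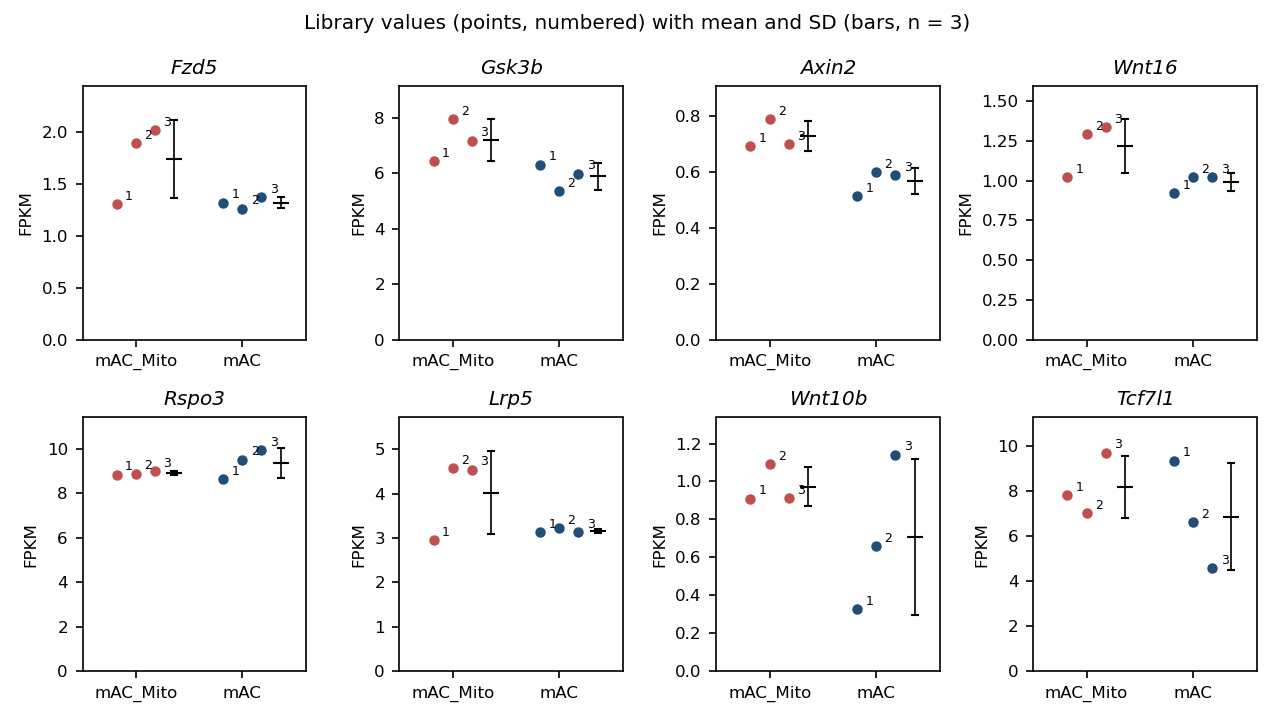
FPKM of 8 Wnt members in each library (points numbered by library, mAC_Mito left of mAC) with mean and SD (bars, n = 3). Fzd5 and Lrp5 are high in mAC_Mito 2 and 3 only, Axin2 is higher in all 3 mAC_Mito libraries, and Wnt10b and Tcf7l1 spread most within mAC.

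Axin2 lies on the plus strand of chromosome 11 at 108920349 to 108950783, Fzd5 on chromosome 1, minus strand, from 64730558 to 64737751, and Gsk3b on the plus strand of chromosome 16 at 38089001 to 38246084 (GRCm38). The promoters of 34 members were in RefSeq's GRCm38.p6 table, as 44 windows of 300 bases from 250 before to 50 after a start. They were searched on both strands for CTTTGAT, the core that TCF/LEF factors bind. Variants of these letters, and sequence outside the windows, were not searched, so a window without the core does not show that its gene lacks such sites. The core was found in 2 of the 44 windows, or 4.55%, and in 3.73% of the 32851 windows of all genes. Both lie at ligand genes, Wnt11 and Wnt5b. These windows are shown with that of Axin2, whose groups were apart, in lower case with the motif in capitals; the window of Axin2 does not hold these letters. Each reads 5′ to 3′ on the strand of its gene: Axin2 at chr11:108920099-108920398 (plus), Wnt11 at chr7:98834862-98835161 (plus) and Wnt5b at chr6:119449337-119449636 (minus, 1 of its 3 starts).
Axin2: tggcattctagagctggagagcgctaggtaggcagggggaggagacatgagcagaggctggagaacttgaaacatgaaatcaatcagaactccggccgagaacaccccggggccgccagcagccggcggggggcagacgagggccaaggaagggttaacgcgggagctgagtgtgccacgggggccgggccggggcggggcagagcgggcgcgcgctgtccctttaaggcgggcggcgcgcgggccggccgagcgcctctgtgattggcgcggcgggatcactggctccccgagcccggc
Wnt11: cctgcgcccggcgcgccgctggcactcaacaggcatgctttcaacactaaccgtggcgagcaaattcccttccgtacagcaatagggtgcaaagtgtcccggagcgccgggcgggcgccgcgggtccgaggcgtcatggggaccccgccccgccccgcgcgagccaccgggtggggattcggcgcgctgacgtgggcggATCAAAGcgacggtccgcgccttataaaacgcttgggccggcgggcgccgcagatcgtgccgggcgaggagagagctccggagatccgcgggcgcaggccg
Wnt5b: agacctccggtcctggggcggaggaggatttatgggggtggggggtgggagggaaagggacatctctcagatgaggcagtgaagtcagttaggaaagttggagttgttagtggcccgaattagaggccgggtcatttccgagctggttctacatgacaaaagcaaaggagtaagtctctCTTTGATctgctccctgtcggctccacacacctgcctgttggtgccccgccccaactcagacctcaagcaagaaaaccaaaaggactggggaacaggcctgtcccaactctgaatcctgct
With the first transcribed base counted as 0, the motif begins at -51 in Wnt11, on the opposite strand, and at -71 in Wnt5b, on the strand of the gene. Wnt11 averaged 0.540 FPKM in mAC_Mito and 0.455 FPKM in mAC, and both genes were lowest in mAC 1. On CPM, that library was the lowest for 5 of the 8 ligands and for 16 of the 48 tested members. A link between the motif and these levels was not tested.

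Other genes of the pathway were counted as a list of 58 symbols, 2 of them older names, of which 49 were measured and 42 tested. None passed the adjusted threshold and none had an unadjusted p under 0.05 (0 of 42, against 3.19% of all genes in edgeR). Their log2 fold changes were above 0 in 28 and below 0 in 14, with a median of 0.11. Wholly higher in mAC_Mito were 6 of the 42, or 14.3%, where 3.93% of all genes were, namely the ligand Wnt6, the cell cycle target Ccnd1, the kinase Tnik and the polarity genes Prickle2, Daam1 and Vangl1, named after their values were seen. Ccnd1 was at 40.3, 46.6 and 44.2 FPKM in mAC_Mito and 37.9, 40.1 and 42.6 FPKM in mAC (groups apart on CPM and overlapping on FPKM). Vangl1 was at 3.75, 3.99 and 4.10 FPKM in mAC_Mito and 3.55, 3.55 and 3.56 FPKM in mAC. Wnt6 and Tnik rest on few reads. Wnt6 had 29 to 42 counts in mAC_Mito and 10 to 27 in mAC, and Tnik had 95 to 108 and 78 to 85. Wholly lower was 1, Cthrc1, a secreted Wnt cofactor and the most abundant gene of that list, at 102, 96.5 and 105 FPKM in mAC_Mito and 101, 119 and 115 FPKM in mAC (groups apart on CPM and overlapping on FPKM). Ryk, a Wnt receptor of the tyrosine kinase family, was above every Frizzled, at 43.1, 40.8 and 41.5 FPKM in mAC_Mito and 43.4, 46.5 and 42.6 FPKM in mAC.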

How the data were processed

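RNA was captured on oligo-dT beads, fragmented and sequenced in pairs on an Illumina instrument, per the labels' protocols. The authors deposited 1 table with a raw read count per gene and library, not normalized, per the file headers, and an FPKM value, which they computed per length and depth. HISAT2 2.0, StringTie 1.3.0, Bowtie 0.12.2 and mm8 are listed with no role in the submitters' processing notes. How reads were counted, and whether by strand, is not given in the sources used here. The table's coordinates are those of GRCm38: 47 of the 50 members had the start and end of GENCODE M21.

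The main test on counts was edgeR's (4.0.16, R 4.3.3) quasi-likelihood F test (filterByExpr, minimum count 10, minimum total 15; TMM scaling; two-sided; Benjamini-Hochberg adjustment over all 17645 genes tested; threshold 0.05). Standard errors and 95% intervals follow from its F statistic. CPM used TMM-scaled library sizes. Levels of lists are means of log2 CPM with a prior count of 2. DESeq2 1.42.0 and limma 3.58.1 (log2 of FPKM plus 1 or 0.1) were alternatives, as were another scaling, other filters, a replicate block and each library left out. The edgeR, DESeq2 and limma fits of all libraries were tried on simulated data, with changes larger than that of any member in the main fit. Smaller changes, the replicate block and fits with a library left out were not simulated. The members and lists were chosen with earlier results of these data known, so no p is adjusted over a list. Values in every library are printed, in each role, for the 2 members with the highest mean FPKM and the one with the smallest p, for members with an unadjusted p under 0.05 and for those whose groups do not overlap on CPM; other members given this way were chosen after their values were seen. Libraries did not agree within sampling noise in any pair.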

Additional observations from a re-analysis of the deposited data

How the results depend on the processing

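No Wnt member passed the adjusted threshold under any alternative run. The median log2 fold change of the members stayed between 0.072 (without mAC_Mito 2) and 0.13. Over all genes, 2 were called, against 4 in DESeq2, 0 without a filter on low counts, 1 in limma on log2(FPKM + 1), 1 without both libraries numbered 1 and 0 to 4 with each library left out; the cause was not tested. With the replicate block 2 genes were called, and no member had an unadjusted p under 0.05 (3.02% of all genes did), Fzd5 being at 0.0525 and Gsk3b at 0.0654. Deviations from the group means correlated at 0.124, -0.060 and -0.012 between libraries with the same number, for numbers 1, 2 and 3. Between libraries with different numbers they correlated at -0.140 to 0.154. With 3 libraries per group, these values cannot decide whether the numbers pair the libraries.

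The sign of the log2 fold change held for 28 of 48 members and turned for 20. In Fzd4 it was 0.0052 without a filter, 0.00096 with a filter on FPKM, and 0.012 and 0.018 in limma with pseudocounts of 1 and 0.1. In Nkd2 these values were 0.0060, 0.00018, 0.020 and 0.034, and 0.014 with the replicate block. Limma gave 0.017 for Ctnnb1 with both pseudocounts. Without both libraries numbered 1, Wnt5b was at -0.17, Fzd9 at -0.065, Lgr4 at 0.084, Znrf3 at -0.014 and Nkd2 at 0.10. With each library left out in turn, the ranges of members that turned were Wnt2b -0.068 to 0.53, Wnt4 -0.76 to 0.0015, Wnt5b -0.083 to 0.28, Fzd4 -0.065 to 0.056, Fzd9 -0.040 to 0.18, Lgr4 -0.14 to 0.058, Znrf3 -0.017 to 0.22, Ctnnb1 -0.044 to 0.058, Axin1 -0.025 to 0.10, Apc -0.059 to 0.29, Dvl1 -0.17 to 0.011, Dvl2 -0.051 to 0.26, Dvl3 -0.079 to 0.39, Tcf7 -0.13 to 0.34, Tcf7l1 -0.028 to 0.57, Sfrp1 -0.11 to 0.019, Sfrp2 -0.018 to 0.055, Sfrp4 -0.17 to 0.041, Wif1 -0.10 to 0.016, Nkd2 -0.12 to 0.17. Counts under 100 per library limit Wnt2b, Lgr5, Lef1 and Dkk2.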
